A study of Mus musculus with 32 samples.

Results

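The interval chr13:21000000-24000000 (GRCm38) of the mouse genome holds the largest cluster of histone genes together with a dense cluster of tRNA genes, among them the genes tRNA-Phe-1-3 and tRNA-Phe-3-1. Its members were all peaks of nucleosome-free ATAC-seq signal that the 6 deposited consensus lists place there, taken by position, although the rule that set the interval also named the loss of the tRNA-Phe-3-1 peak in the brain of 1 knockout. They were 1329 of the 1040049 peaks in the 6 lists, and merged into 341 distinct regions. The RefSeq annotation of this build places 104 tRNA genes and 54 histone genes in the interval, and 299 nuclear tRNA genes elsewhere.

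ATAC-seq, in which a transposase cuts and tags accessible DNA, was performed on 50000 nuclei per library from brain or liver of male C57BL/6N mice, wild type or homozygous for a CRISPR-Cas9 deletion of 1 tRNA-Phe gene. The knockouts were tRNA-Phe-1-1-/- (Phe11, 4 brain and 4 liver libraries), tRNA-Phe-2-1-/- (Phe21, 3 and 3) and tRNA-Phe-3-1-/- (Phe31, 3 and 3), beside 5 wild-type brain and 7 wild-type liver libraries, 32 libraries in all, each given by its label as a separate sample. Only tRNA-Phe-3-1 of the deleted genes lies in the interval. Every deletion was in the germline and so in all tissues, and wild-type mice were age-matched littermates whose age was not given in the labels. Whole tissue was used, so that fewer cells of a type and less signal per cell cannot be told apart, and p-values measure the spread between these samples.

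The liver libraries labelled Phe31 kept signal at tRNA-Phe-3-1, the gene their label says was deleted, and are called labelled Phe31 liver throughout. The start of Neurod1, a neuronal transcription factor gene, had a peak in the 3 brain lists and in no liver list, the starts of Alb and Apoa1, which encode plasma proteins made by hepatocytes, had peaks in the 3 liver lists and in no brain list, and the start of the astrocyte gene Gfap had none in any list. Depth over the 401 tRNA loci was 20315 to 35565 reads in 15 brain libraries and 4719 to 23754 in 17 liver libraries. Of 41 pairs of libraries compared within groups, 3 differed by less than sampling noise, namely wild-type brain 3 and 18, wild-type liver 1 and 22 and wild-type liver 3 and 24, each joining batch 1 and batch 2 of the labels, and each such pair was counted as 1 sample in the mean, SD and n. The tests and their SE took every library as a separate sample, except where close wild-type libraries are said to be averaged. The 3 brain comparisons share wild-type libraries, and so do the Phe11 and Phe21 liver comparisons, whereas labelled Phe31 liver has wild-type libraries of its own.

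tRNA genes are transcribed by RNA polymerase III from promoter elements inside the gene, the A box and the B box, and an active copy is usually a short open stretch free of nucleosomes. Replication-dependent histone genes are short, lack introns, and are transcribed by RNA polymerase II in S phase from compact promoters, many of them shared by a divergent H2A and H2B gene. In mice, this stretch of chromosome 13 also carries vomeronasal receptor (Vmn1r) genes, which are expressed in sensory neurons of the vomeronasal organ.

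The tRNA-Phe genes are shown because the deletion in 1 of the knockout lines falls on 1 of them and the other differs from it by a single base. Both are 73 bases long and are printed 5′ to 3′ along the gene, with the bases matched by the 20-base guide of the knockout (positions 24 to 43) in capitals and followed by the PAM AGG. tRNA-Phe-1-3 (RefSeq n-TFgaa4) lies on the plus strand at chr13:21161405-21161477 in GRCm38, and tRNA-Phe-3-1 (RefSeq n-TFgaa1) on the minus strand at chr13:21882885-21882957, 721480 bases apart. The sequences were read from GRCm39, where the genes lie at chr13:21345575-21345647 and chr13:22067055-22067127.
tRNA-Phe-1-3: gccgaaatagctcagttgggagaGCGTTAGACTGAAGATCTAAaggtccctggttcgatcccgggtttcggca
tRNA-Phe-3-1: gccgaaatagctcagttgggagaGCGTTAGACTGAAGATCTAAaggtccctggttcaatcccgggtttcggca
The genes differed by G57A, counted from the 5′ end of the gene with the base of tRNA-Phe-1-3 first. That base lies in the B box, found by the letters GGTTCNANNCC at positions 52 to 62 of both genes. The guide was gcgttagactgaagatctaa and matched chromosome 13 at these genes alone when an NGG had to follow, 2 matches in all.

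For each knockout, more peaks were called in brain than in liver. The interval held 275, 227 and 235 peaks in the Phe11, Phe21 and Phe31 brain lists and 221, 187 and 184 in the Phe11, Phe21 and labelled Phe31 liver lists, which covered from 4.48% of its bases in Phe11 brain down to 2.758% in labelled Phe31 liver. Peaks were called by group and merged over 1 knockout and its wild type, so that a list holds no value per library, and the longer Phe11 lists, with 4 libraries a group, cannot be read as an effect of the genotype. The median peak was 363 to 382 bases wide in brain and 366 to 425 in liver, against 327 to 331 and 337 to 380 over all peaks of the same lists.

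The widest peaks lay over gene starts and over groups of tRNA genes. The widest in brain spanned 1844 bases over the alanine and valine tRNA genes n-TVcac2, n-TAagc7 and n-TVaac5, followed by 1797 bases at the start of Trim27, a ubiquitin ligase gene, and 1768 at the linker histone gene H1f3. In liver, the widest was that of Trim27 with 2284 bases, before H4c8 with n-TMcat9 (1758), H1f2 (1714) and Hfe (1624), the gene of a regulator of iron uptake.

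**Figure D1:**
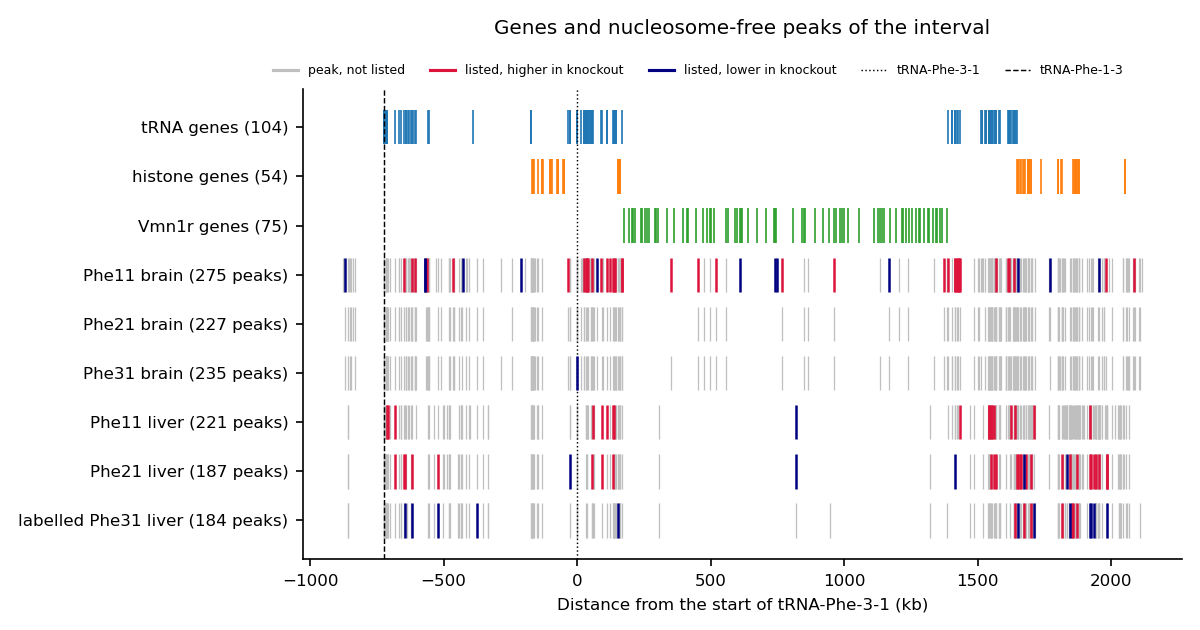
Genes of the interval and peaks of the 6 lists by their distance in kb from the start of tRNA-Phe-3-1 (dotted line; tRNA-Phe-1-3 dashed), with peaks in the deposited lists of differential peaks in red (higher in the knockout) or blue (lower) and all others in grey. Peaks crowd over the tRNA and histone genes and are sparse over the Vmn1r genes between them, and Phe31 brain has 1 listed peak, at tRNA-Phe-3-1.

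tRNA and histone genes had peaks in both tissues more often than the rest of the interval. Of the 85 merged regions with a tRNA gene, 65 (76.5%) had peaks in both tissues, 18 in brain alone and 2 in liver alone, and of the 47 with a histone gene 37 (78.7%) were in both, 5 in brain alone and 5 in liver alone. The region of n-TMcat9 and H4c8 holds both kinds of gene and is counted in each. Of the other 210 regions, 51 (24.3%) were in both, 93 (44.3%) in brain alone and 66 (31.4%) in liver alone. Over all 341 regions, 152 were open in both, 116 in brain alone and 73 in liver alone (77 and 57 when a region had to be in at least 2 lists of a tissue, a choice made after seeing the data), and 114 had a peak in each of the 6 lists, 44 of them with a tRNA gene and 35 with a histone gene, 1 of which holds both. Regions in every list of 1 tissue and no list of the other numbered 64 for brain, 10 with a tRNA gene, and 43 for liver, 0 with a tRNA gene. These counts carry no test, since libraries cannot be compared in the lists, and liver libraries had fewer reads, whose part in the counts was not tested.

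**Figure D2:**
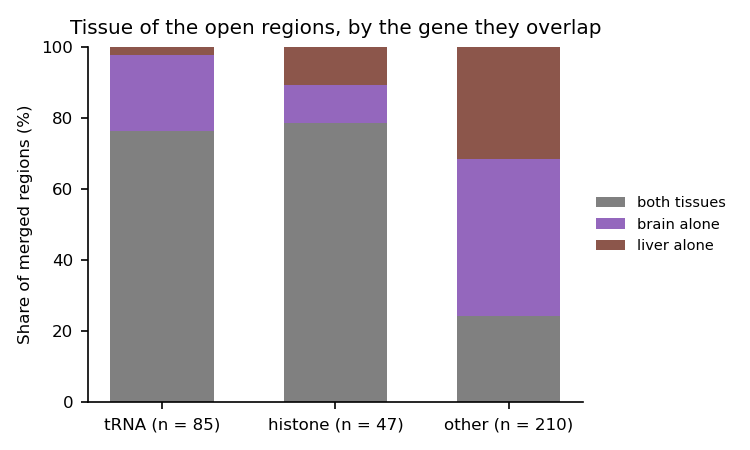
Share (%) of merged regions of the interval with peaks in both tissues (grey), brain alone (purple) or liver alone (brown), for regions with a tRNA gene, with a histone gene or with neither. Both tissues share 76.5% of the 85 tRNA regions and 78.7% of the 47 histone regions, 1 of which holds both kinds of gene, but 24.3% of the 210 others.

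Most of the 104 tRNA genes had a peak in brain and fewer had one in liver, where libraries had fewer reads, whose part was not tested. A peak overlapped 95, 83 and 87 of them in the Phe11, Phe21 and Phe31 brain lists and 76, 54 and 49 in the Phe11, Phe21 and labelled Phe31 liver lists. A total of 49 had a peak in all 6 lists, 21 in brain lists alone, 2 in liver lists alone (n-TRtct3 and n-TStga2, each in 1 liver list) and 7 in none. The 11 genes in every brain list and no liver list were spread over 8 amino acids, with 3 of the 7 threonine genes and 2 of the 4 lysine genes among them, and included n-TItat14 (Ile-TAT), n-TLtaa2 (Leu-TAA) and n-TMcat2 (Met-CAT). Both tRNA-Phe genes, both glutamate genes and 6 of 7 leucine genes were in all 6 lists, whereas neither glycine gene had a peak in the Phe21 or labelled Phe31 liver list.

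Histone genes fell into the same 2 sets in every list. Of the 54 genes, 38 were overlapped by a peak in all 6 lists and 16 in none, so that by this count no histone gene differed between tissues. The open genes were 9 of 11 for H4 and 8 of 9 for H3, which form the central tetramer of the nucleosome, 10 of 15 for H2B and 8 of 13 for H2A, which flank it, and 3 of 6 for the linker histone H1. A run of 12 of the 16 genes without a peak, from H2ac15 to H4bc24, lay together in a stretch of 97009 bases at chr13:21750912-21847920 in which no list had a peak. The other 4 were H1f4, inside a gap of 52815 bases, the testis-type linker gene H1f6, and H2bc1 and H2ac1, a divergent pair also known from testis, near the far end of the cluster.

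Several promoters in the block without peaks share sequence with other promoters. The deposited signal rests on alignments with a mapping quality of at least 30, which reads from near-identical copies may not reach. Cut into stretches of 50 bases, the promoters of 6 of the 12 block genes held stretches that recur in another promoter of the RefSeq table on either strand, from 73.3% to 100% of their stretches with a median of 94.0% over the 6. The same was true of 2 of the 35 promoters of genes with a peak in every list that could be read, with at most 11.6% of stretches, and of 0 of the 4 others without a peak. The other 6 block genes have no peak and no such stretch, and the part of mapping in the missing peaks was not tested.

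The longest gap between peaks and the next fell on receptor genes, while another, of 108349 bases, held no Vmn1r gene. The stretch of 169176 bases from chr13:22847247 to 23016422 held 9 Vmn1r genes, and the next, of 137577 bases, held 13, with annotated pseudogenes counted. None of the 36 protein-coding Vmn1r genes and none of the 12 olfactory receptor (Olfr) genes was overlapped by a peak anywhere along its length in either tissue, whereas all 7 zinc finger genes and both butyrophilin genes (Btn1a1 and Btn2a2) were in both tissues. The part of mapping quality in the missing peaks of the receptor genes was not tested. Genes with peaks in brain lists alone included Gpx6, a glutathione peroxidase gene (3, 1 and 1 peaks), and Pom121l2 (1 in each). At the far end, Scgn, which encodes the calcium-binding protein secretagogin, had 5 peaks over its length in each brain list and 0, 0 and 1 in the liver lists. Slc17a4, a sodium phosphate cotransporter gene, had none in brain and 4, 3 and 3 in liver. Its neighbours of the same family were open in both, Slc17a3 with 4 peaks in each brain list and 7, 6 and 4 in liver.

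The only peak of the whole genome listed as differential in Phe31 brain was that of tRNA-Phe-3-1, the gene deleted in those mice. The deposited lists of differential peaks hold peaks with a false discovery rate of at most 0.05, with the log2 mean concentration (log2 of normalised reads in the peak) of each group, and 1 of 215211 peaks, or 0.000465%, was listed. The 441-base peak at chr13:21882802-21883242 had a log2 mean concentration of 5.74 in wild type and 2.19 in the knockout, a difference of -3.55. The rule that chose the interval named this peak, so its loss is a description here. Peaks on both sides were in the list and not among the differential ones, namely a 205-base peak 213 bases before it and the peak of n-TItat14 13613 bases after it. All 6 lists had a peak over tRNA-Phe-3-1, 441 to 555 bases wide, and no other comparison listed it.

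Read counts per library, available for both tRNA-Phe genes with 50 bases on each side, give this loss by library and, since the rule had named it, are a description without a test. At tRNA-Phe-3-1 the normalised read counts were 48.3, 46.8 and 42.3 in wild-type brain and 2.84, 0.940 and 2.84 in Phe31 brain, resting on 35 to 51 and 1 to 3 reads. The groups did not overlap, with 45.8 ± 3.13 (SD, n = 3) against 2.20 ± 1.10 (SD, n = 3), or 4.82% of wild type. The log2 difference, on the scale of log2(normalised count + 1), was -3.93 ± 0.40 (SE). Over the 258 tRNA loci of this comparison, limma called 0.775%, a share that includes this locus.

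The other tRNA-Phe gene of the interval, identical in the guide target, kept its signal in those brains. Normalised read counts at tRNA-Phe-1-3 were 86.3, 85.3 and 79.7 in wild-type and 94.5, 80.9 and 95.6 in Phe31 brain. The ranges overlapped, and the means were 83.8 ± 3.55 and 90.3 ± 8.20 (SD, n = 3 each), a log2 difference of 0.10 ± 0.12 (SE) with a limma adjusted p of 0.935. Its peak was 1091 to 1140 bases wide in the brain lists, where it also took in the glutamate tRNA gene n-TEctc11, and 290 to 394 in the liver lists, where that gene had a peak of its own. No comparison listed it.

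In liver labelled Phe31, tRNA-Phe-3-1 still had signal. Its normalised read counts were 13.2, 15.6 and 9.91 in wild type and 9.01, 9.62 and 10.6 in the libraries labelled Phe31, with ranges that overlapped. The knockout mean was 75.4% of wild type, a log2 difference of -0.35 ± 0.33 (SE; limma adjusted p = 0.633, n = 3 each), where limma called 10.7% of 178 loci (19, against 7 by edgeR and 1 by DESeq2), and only 7 to 20 reads per library stood behind these values. At tRNA-Phe-1-3 the mean was 89.9% of that in wild type (limma adjusted p = 0.782).

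Deletion of tRNA-Phe-2-1, outside the interval, came with lower counts at tRNA-Phe-3-1 in liver, a call that several alternatives lost. The normalised read counts were 28.6, 26.6 and 27.4 in wild-type and 19.9, 9.43 and 20.9 in Phe21 liver, without overlap. The means were 27.8 ± 1.17 (SD, n = 2, wild-type libraries 3 and 24 counted as 1) and 16.7 ± 6.36 (SD, n = 3), 60.2% of wild type. The log2 difference was -0.76 ± 0.27 (SE; limma adjusted p = 0.0404), where limma called 13.4% of the 201 loci tested (27, against 34 by edgeR and 17 by DESeq2), and the exact two-sided permutation test gave p = 0.1, the smallest that 3 against 3 libraries allow. Over 15 alternatives the adjusted p ranged from 0.0197 to 0.359, and it was below 0.05 in 7. The call was lost without wild-type 1, 3 or 24 (adjusted p of 0.0512, 0.147 and 0.136 by limma), without Phe21 liver 8 (log2 difference -0.41, adjusted p of 0.359), and with the close wild-type libraries averaged (0.112 by limma). Wild-type 24 is the only one of these libraries from batch 2, and within batch 1 the log2 difference was also -0.76.

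In Phe21 brain the same gene had 50.2, 49.0 and 44.3 normalised reads in wild type and 42.2, 34.4 and 28.4 in the knockout. These groups did not overlap either, at 73.2% of wild type, but the log2 difference of -0.46 ± 0.18 (SE) did not pass the test (limma adjusted p = 0.187, n = 3 each), in a comparison where limma called 0% of 253 loci, with 43 at an unadjusted p under 0.05, edgeR 2 and DESeq2 0. Liver minus brain, the difference between the log2 changes was -0.32 with an adjusted p of 0.725 by edgeR's quasi-likelihood interaction test, which called 6.61% of 257 loci. Neither tissue's change at tRNA-Phe-1-3 passed, with 112% of wild type in Phe21 brain and 131% in Phe21 liver (limma adjusted p of 0.534 and 0.208). In liver its counts did not overlap between groups, 19.4 to 25.1 against 25.1 to 32.2 at the unrounded values.

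In Phe11, neither gene passed the test in either tissue. At tRNA-Phe-3-1, Phe11 brain had 45.7, 42.5, 45.3 and 49.2 normalised reads beside 51.3, 44.7, 41.9 and 38.2 in wild type, and Phe11 liver 13.3, 32.2, 22.1 and 23.5 beside 26.3, 24.5, 16.1 and 24.7. Both sets of ranges overlapped, and the knockout means were 102% and 99.6% of wild type (limma adjusted p of 0.783 and 0.937). At tRNA-Phe-1-3 the Phe11 brain mean was 85.3% of wild type, a log2 difference of -0.25 ± 0.11 (SE; limma adjusted p = 0.0849), which was -0.04 within batch 1 and -0.46 within batch 2. With batch 2 alone limma called 1 of the 2 genes, and without Phe11 6 the log2 difference at tRNA-Phe-1-3 was -0.34 with an exact permutation p of 0.0286 and a limma adjusted p of 0.0580, while without Phe11 14 they were -0.13 and an adjusted p of 0.383, in a range of adjusted p from 0.0508 to 0.383 over 18 alternatives that used both batches. In Phe11 liver it was 125% of wild type (0.30 ± 0.21, limma adjusted p = 0.400), with 0.28 and 0.33 within the batches. With close wild-type libraries averaged, the limma adjusted p at tRNA-Phe-1-3 was 0.181 in Phe11 brain and 0.700 in Phe11 liver. At tRNA-Phe-3-1 it was then 0.896 and 0.938. In these comparisons limma called 28.1% of 263 loci in brain (74, against 67 by edgeR and 34 by DESeq2) and 12.1% of 207 in liver (25, against 23 and 11). The interaction test of edgeR called neither gene (unadjusted p of 0.759 and 0.0258, adjusted 0.909 and 0.164) and 9.40% of 266 loci.

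**Figure D3:**
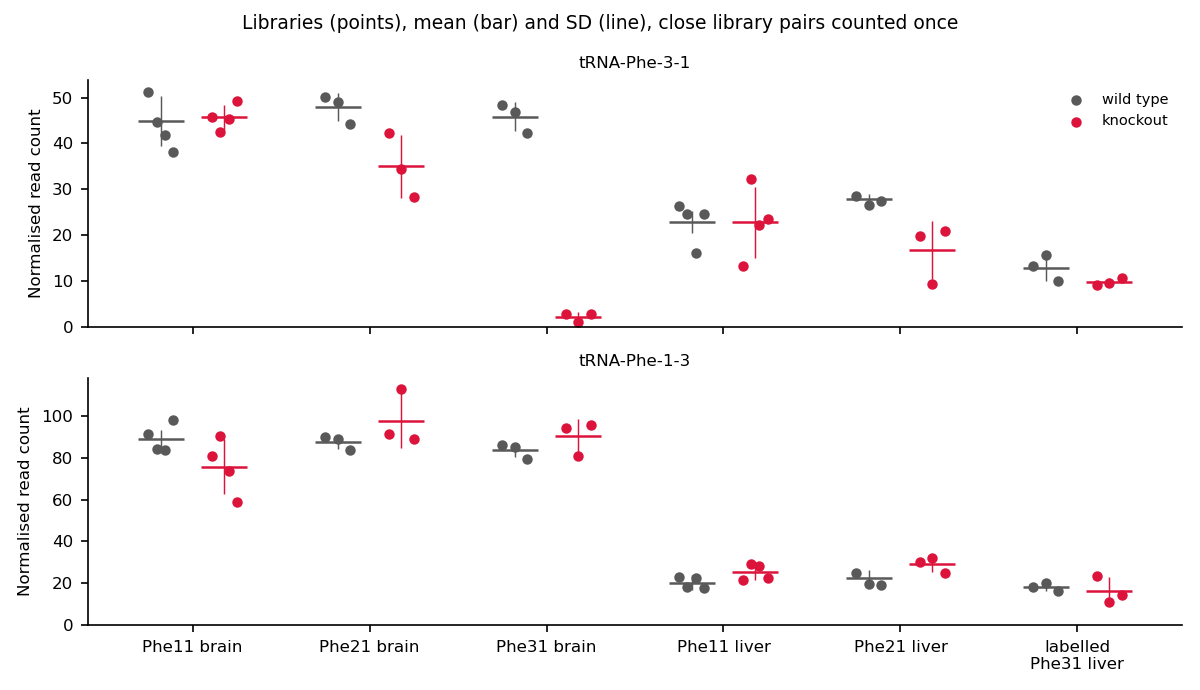
Normalised read count at tRNA-Phe-3-1 (top) and tRNA-Phe-1-3 (bottom) in every library of the 6 comparisons, with wild type in grey and knockout in red, the mean as a bar and the SD as a line. The 3 Phe31 brain libraries lie between 0.940 and 2.84 at tRNA-Phe-3-1, below all others, while those of labelled Phe31 liver overlap their wild type.

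In Phe11 brain, 23 of the 85 tRNA gene peaks of the interval (27.1%) were listed as higher in the knockout and 0 as lower. Of 275 peaks, 52 (18.9%) were listed as differential, beside 16.3% of all 269579 peaks, but the directions were unlike, since 39 were higher in the knockout and 13 lower (14.2% and 4.73%, beside 4.04% higher and 12.2% lower over the genome). The 23 tRNA gene peaks were among the 39. The balance turned among the larger differences, since 8 peaks were higher and 11 lower by at least 1 on the log2 scale, although the 6 tRNA gene peaks among these were all higher. Among the 112 peaks over tRNA genes elsewhere, 5 were listed as higher (4.46%) and 9 as lower (8.04%). The lists give group means only, so no test was made of these counts. No value within batch 1 or batch 2, or with close wild-type libraries averaged, could be computed.

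The differences ranged from 0.22 to 1.45 on the log2 scale with a median of 0.71. The largest was at the lysine gene n-TKttt22, with a log2 mean concentration of 3.18 in wild type and 4.63 in the knockout, followed by the leucine gene n-TLtaa2 (4.52 and 5.80), the serine gene n-TSgct8 (4.79 and 6.04), the leucine gene n-TLcaa2 (5.44 and 6.59) and the glutamine gene n-TQctg10 (3.58 and 4.70). All of these were below the wild-type level of 8.48 at n-TSgct5, a serine gene and the strongest raised peak, which had the smallest difference (8.48 and 8.70). By amino acid, 6 of 9 serine genes with a peak were raised, 5 of 9 valine genes and 3 of 7 leucine genes, beside 0 of 7 arginine and 1 of 12 alanine genes and 24 of all 95. These amino acids were picked after their values were seen, and amino acid was not separated from position. Genes under 1 peak were counted singly, such as n-TVaac6 and n-TAagc11. Of the 23 raised peaks, 2, those of n-TKttt22 and n-TQctg10, met no peak of the Phe21 or Phe31 brain lists, which share 2 wild-type libraries with it, as did 5 of the 62 tRNA gene peaks not listed, and a peak called in the knockout group alone would have had to be higher there. The median width was 473 bases for the raised and 523.5 for the other tRNA gene peaks in Phe11 brain, and 603 and 429.5 in Phe11 liver, where the 1 peak that also covers a histone gene was left out.

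By position, tRNA genes less than 100 kb apart form 3 large blocks. In the first, with 24 tRNA genes and tRNA-Phe-1-3 at chr13:21160785-21326789, 1 of 18 tRNA gene peaks was higher in Phe11 brain. In the second, with 32 genes and tRNA-Phe-3-1 at chr13:21848022-22050767, 12 of 29 were higher. In the third, with 45 genes at chr13:23270421-23530419, 10 of 36 were higher. In Phe11 liver the counts for the same blocks were 3 of 15, 5 of 20 and 8 of 30, the last with the peak that also covers H4c8. No test was made between blocks.

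Histone gene peaks hardly entered the Phe11 brain list. Of 43, 1 was listed, that of the H3 gene H3c8, with 8.95 in wild type and 8.72 in the knockout. Of the 147 peaks over neither kind of gene, 16 were higher and 12 lower. The lower ones were narrow, with a median width of 234 bases and at most 561, against 474.5 for the higher ones. The largest falls were at chr13:22494333-22494558 between Vmn1r genes (4.17 to 1.04, a difference of -3.13), at chr13:23052552-23052933 (5.30 to 2.70) and within Slc17a3 (4.82 to 2.28), and 2 peaks of Gpx6 were lower by -1.46 and -1.33. The first of these and both Gpx6 peaks met no peak of the Phe21 or Phe31 brain lists, as did several other lower peaks. A peak called in the wild-type group alone would have had to be lower in the knockout. A peak in the thymus protease gene Prss16 was higher (7.19 to 7.78), as was 1 in Scgn (4.33 to 5.30).

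In Phe11 liver, most of the listed peaks were those of tRNA genes and were higher. Of 221 peaks, 19 (8.60%) were listed, 18 higher and 1 lower, beside 4.14% over the genome, 1.95% higher and 2.19% lower. tRNA gene peaks were 16 of the 18 (24.2% of 66, with 0 lower, leaving out the 1 peak over both n-TMcat9 and H4c8, which was not listed), against 5 higher and 4 lower of 102 elsewhere. Their differences were 0.42 to 1.48 with a median of 0.60. The largest were at the methionine gene n-TMcat12 (2.79 to 4.27), the tryptophan gene n-TWcca4 (3.56 to 4.80) and the tyrosine gene n-TYgta4 (3.67 to 4.71). The peak of n-TMcat12 met no peak of the Phe21 or labelled Phe31 liver lists. A peak called in the knockout group alone would have had to be higher there.

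Brain and liver come from separate libraries. The peaks of n-TMcat12, n-TScga1, n-TSgct8 and n-TVaac3 were higher in both Phe11 lists, 17.4% of the 23 in brain and 25.0% of the 16 in liver, close to the 24.2% and 27.1% of all tRNA gene peaks that were raised in the other tissue's list. In log2 difference n-TMcat12 stood at 0.75 in brain and 1.48 in liver, n-TSgct8 at 1.25 and 0.88, n-TScga1 at 0.64 and 0.74, and n-TVaac3 at 0.45 and 0.65. A peak to compare was present for most, since 20 of the 24 genes raised in brain (83.3%) had a Phe11 liver peak, beside 54 of 71 (76.1%) brain-open genes not raised. Whether a peak's change differed between the tissues was not tested. By amino acid, 4 of 6 leucine genes with a liver peak, 3 of 5 tyrosine, 4 of 10 serine and 3 of 8 methionine genes were raised in liver, beside 20 of all 76 tRNA genes with a peak there, and no tyrosine gene was raised in brain. These amino acids were picked after their values were seen. Genes under 1 peak were counted singly, such as n-TMcat15, n-TLaag7 and n-TLaag5, which share 1 raised peak. Both remaining listed liver peaks that were higher lay at H2bc6, within the annotated length of the gene and not at its start (4.36 to 5.70), and at Gm11337 (6.21 to 6.89).

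**Figure D4:**
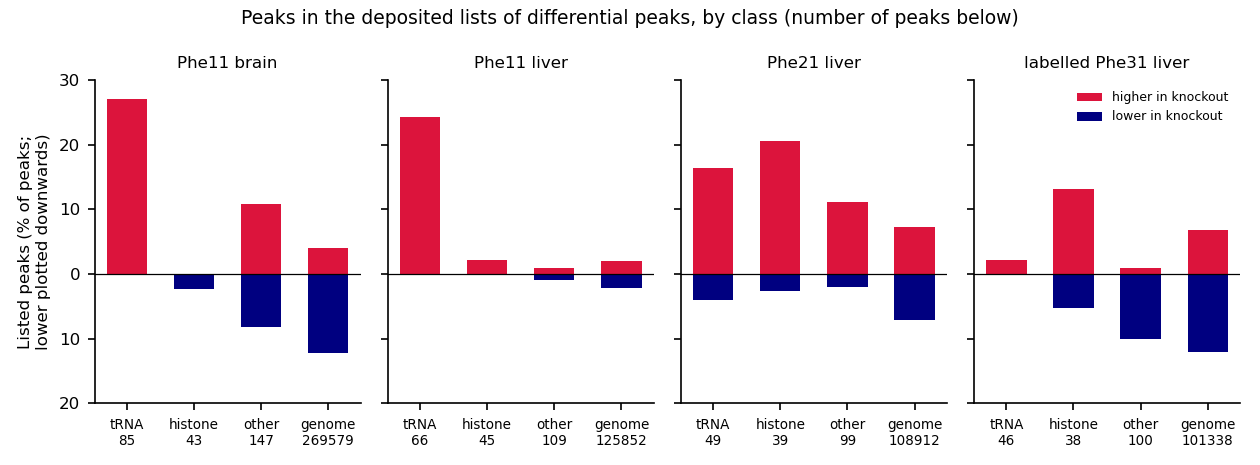
Share (%) of peaks in the deposited lists of differential peaks, higher in the knockout upwards and lower downwards, for tRNA gene, histone gene and other peaks of the interval and for the whole genome, with the number of peaks under each bar and the Phe11 liver peak over both kinds of gene left out of the first 3 bars. The tRNA bars of Phe11 reach 27.1% in brain and 24.2% in liver with none lower, and the histone bar is highest in Phe21 liver.

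Phe21 brain had no listed peak in the interval among 227, beside 0.711% over the genome (0.426% higher and 0.285% lower). In Phe21 liver the pattern was broader, and histone genes were part of it. Of 187 peaks, 32 (17.1%) were listed, 27 higher and 5 lower (2 and 3 by at least 1 on the log2 scale), beside 14.4% over the genome, 7.29% higher and 7.07% lower. Histone gene peaks gave 8 higher and 1 lower of 39, tRNA gene peaks 8 higher and 2 lower of 49, and the others 11 higher and 2 lower of 99. Elsewhere in the genome 15 of 101 tRNA gene peaks were higher (14.9%), close to the 16.3% of the interval, so that for tRNA genes the interval did not stand apart.

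The raised histone peaks were H4c8, H4c4, H4c3 and H4c2, the H3 genes H3c8, H3c7 and H3c6, and H2bc9, by 0.42 to 0.62 in log2 mean concentration. All were strong peaks, with wild-type values from 6.07 at H4c2 to 7.67 at H4c8. The linker histone gene H1f3 moved the other way, from 6.95 to 6.48. Among tRNA genes the largest difference was a loss at the alanine gene n-TAagc11, in a 199-base peak that went from 3.73 to 0.48, while n-TVaac3 (5.76 to 6.70) and the aspartate gene n-TDgtc12 (6.11 to 7.05) were raised. Of the 18 peaks at the phosphate transporter genes Slc17a1 to Slc17a4, 5 were listed as higher and 0 as lower, with the start of Slc17a1 at 6.15 and 7.12, the start of Slc17a2 at 6.45 and 7.21, and a peak in Slc17a3 at 6.74 and 7.43, while the start of Slc17a3 and the peaks of Slc17a4 were not listed.

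In labelled Phe31 liver, a smaller share of peaks was listed than over the genome, and most were lower. Of 184 peaks, 19 (10.3%) were listed, 7 higher and 12 lower, beside 18.9% over the genome, 6.85% higher and 12.1% lower. Histone gene peaks gave 5 of the 7 higher ones and 2 lower of 38, tRNA gene peaks 1 higher and 0 lower of 46 (n-TSgct4, 4.77 to 5.50), and the others 1 higher and 10 lower of 100. The largest rise was at chr13:23736999-23737304, close to H1f2 (2.79 to 5.00). That peak was in no other list, and a peak called in the knockout group alone would have had to be higher there. The start of Slc17a1 was lower, from 6.76 to 5.62. A peak within the annotated length of H2bc6, and not at its start, was lower as well, from 5.77 to 4.75.

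Phe21 liver and labelled Phe31 liver, which share no library, listed 13 regions in common, 10 of them in opposite directions. The 13 were 40.6% of the 32 of Phe21 liver and 68.4% of the 19 of labelled Phe31 liver, and 76.9% of them were opposite. Over the genome, 32.0% and 26.9% of the listed peaks were shared and 89.0% of the 5208 overlapping pairs were opposite, so that opposite directions were not particular to the interval. The 3 with the same direction were H4 genes, all higher in the knockout, with log2 differences of 0.53 and 0.50 at H4c4, 0.56 and 0.41 at H4c3 and 0.62 and 0.43 at H4c2. Of the 10, 9 were higher in Phe21 liver and lower in labelled Phe31 liver. They included the start of Slc17a1 (0.97 and -1.14), the start of Slc17a2 (0.76 and -0.49), Gm11337 (1.09 and -0.89), H3c8 (0.50 and -0.45) and the start of the zinc finger gene Zscan12 (0.39 and -0.31). H1f3 was lower in Phe21 liver and higher in labelled Phe31 liver (-0.47 and 0.45). Over all 6 comparisons, 92 regions were listed at least in 1, 27 in at least 2, and 12 in both directions.

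**Figure D5:**
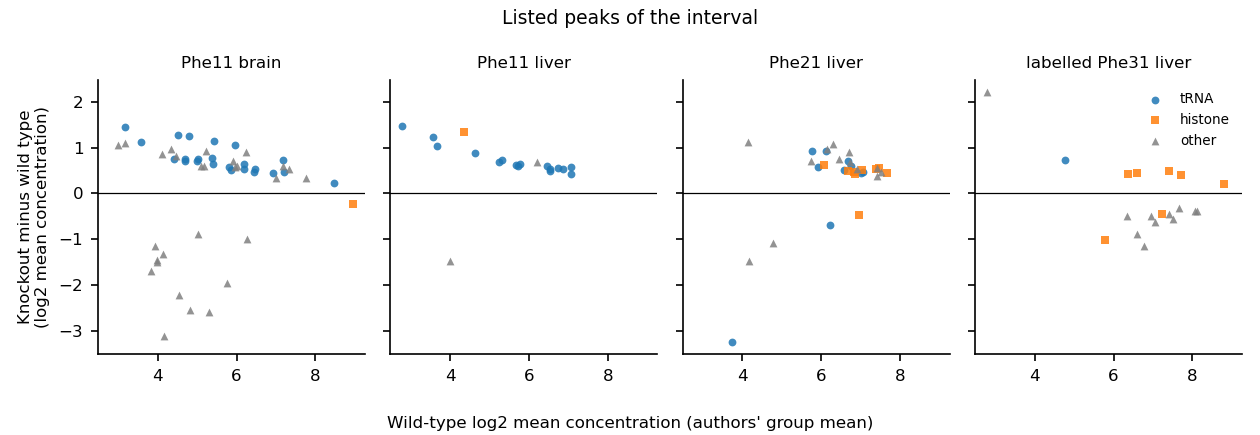
Difference in log2 mean concentration, knockout minus wild type, against the wild-type log2 mean concentration for each listed peak of the interval, with tRNA gene peaks as circles, histone gene peaks as squares and others as triangles. tRNA gene peaks of both Phe11 panels lie above 0, between 0.22 and 1.48, and histone gene peaks of the liver panels of Phe21 and labelled Phe31 mostly lie between 0.21 and 0.62.

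The promoters of the 5 histone genes whose start peak was listed in at least 2 comparisons are shown as the histone genes with a repeated change. Each is the 250 bases before the gene start in RefSeq for GRCm38.p6, read 5′ to 3′ along the gene, with the TATA motif TATAAA, the CAAT box motif CCAAT and the octamer ATTTGCAT in capitals on either strand. Their positions were H1f3 chr13:23554782-23555031 (plus strand), H3c8 chr13:23535168-23535417 (plus strand), H4c4 chr13:23581318-23581567 (plus strand), H4c3 chr13:23698459-23698708 (minus strand), H4c2 chr13:23756687-23756936 (plus strand).
H1f3: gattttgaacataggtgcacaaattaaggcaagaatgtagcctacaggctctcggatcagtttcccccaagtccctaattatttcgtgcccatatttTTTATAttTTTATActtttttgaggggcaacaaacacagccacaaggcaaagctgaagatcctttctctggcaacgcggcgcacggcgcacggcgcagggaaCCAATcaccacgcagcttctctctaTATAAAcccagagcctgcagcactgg
H3c8: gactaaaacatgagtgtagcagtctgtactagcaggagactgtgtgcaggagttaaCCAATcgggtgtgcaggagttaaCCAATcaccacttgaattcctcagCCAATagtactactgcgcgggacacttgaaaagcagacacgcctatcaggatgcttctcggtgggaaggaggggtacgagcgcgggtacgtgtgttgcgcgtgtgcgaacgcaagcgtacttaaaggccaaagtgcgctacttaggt
H4c4: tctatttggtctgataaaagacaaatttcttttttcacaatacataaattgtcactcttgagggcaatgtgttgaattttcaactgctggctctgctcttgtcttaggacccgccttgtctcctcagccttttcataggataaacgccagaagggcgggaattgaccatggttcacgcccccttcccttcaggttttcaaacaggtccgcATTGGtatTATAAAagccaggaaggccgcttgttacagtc
H4c3: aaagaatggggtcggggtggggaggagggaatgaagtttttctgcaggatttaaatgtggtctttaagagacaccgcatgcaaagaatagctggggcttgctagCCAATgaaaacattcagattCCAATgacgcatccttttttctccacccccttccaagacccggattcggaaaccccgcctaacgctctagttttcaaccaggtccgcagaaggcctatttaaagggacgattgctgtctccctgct
H4c2: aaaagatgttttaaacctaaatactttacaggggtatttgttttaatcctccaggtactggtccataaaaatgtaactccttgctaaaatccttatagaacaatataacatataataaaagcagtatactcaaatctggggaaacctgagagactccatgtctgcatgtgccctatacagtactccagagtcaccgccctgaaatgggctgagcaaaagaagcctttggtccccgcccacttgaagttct
The 3 H4 promoters, higher in both liver comparisons, held CCAAT motifs at H4c4 (1) and H4c3 (2) and none at H4c2, and a TATAAA motif at H4c4 alone. Those of H1f3 and H3c8, whose peaks went in opposite directions, held 1 and 3 CCAAT motifs, and 3 and 0 TATAAA motifs. None held the octamer ATTTGCAT, the site of octamer-binding factors. Of the 54 histone genes 51 had a promoter in the table. In the same 250 bases before the start, CCAAT was found in 84.3% of the 51 and in 33.8% of all 32851 promoters, TATAAA in 51.0% and 12.4%, and the octamer in 21.6% and 1.60%. By class, CCAAT was in 3 of 11 H4 promoters and in all of the other classes, and the octamer in 5 of 13 H2A and 6 of 14 H2B promoters and in no other class. In the 35 promoters of genes with a peak in every list and the 16 of genes without a peak, CCAAT was found in 82.9% and 87.5%, TATAAA in 45.7% and 62.5%, and the octamer in 25.7% and 12.5%. A match of letters is a description and no measured binding site.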

How the data were processed

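ATAC-seq libraries were processed by the authors before deposit. Per the submitters' processing notes and the study's methods, reads were trimmed with Trim Galore 0.6.4, aligned to GRCm38.p6 by Bowtie2 2.4.1, which kept as many as 20 alignments, freed of duplicates with Picard 2.23.8 and filtered at a mapping quality of 30. Nucleosome-free signal came from fragments no longer than 175 nt. The deposited consensus peaks, given as positions (the scores beside them were not used), were called with Genrich 0.6 per group. For DiffBind 3.0.8, the authors deposited the log2 concentration of each group for peaks with a false discovery rate of at most 0.05, together with fold changes, p-values and false discovery rates, which were not used, as were the authors' tables of tRNA fold changes. The knockout concentration is named Phe11 in 3 other tables and was taken as that of each table's knockout. The deposited signal at 401 tRNA loci is a count by featureCounts 2.0.0 with 50 nt on each side, divided by the authors by a DESeq2 size factor within each comparison. Whole reads were recovered from these values.

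Peaks were intersected with RefSeq genes (at least 1 base, or for a gene start 250 bases before to 50 after). Only 2 of the 401 loci, the tRNA-Phe genes, could be placed in the interval, since the tables give no positions and the RefSeq names could not be matched to them, so the rule for other named tRNA loci (the largest changes and highest levels per library) could not be applied. Named peaks were the 5 higher and 5 lower with the largest difference per comparison, listed tRNA and histone gene peaks and the 5 widest per tissue. A few others (Gpx6, Prss16, Scgn, Slc17a, Zscan12, Gm11337, n-TSgct5 and the peaks raised in both tissues) were chosen after their values were seen. The members and lists were chosen with earlier results of these data known. Loci with a mean of at least 10 were tested on log2(normalised count + 1) with limma 3.58.1 (trend, two-sided, Benjamini-Hochberg, 0.05, with batch as a term in Phe11) and an exact two-sided permutation test. Recovered reads were tested with edgeR 4.0.16 (interaction, quasi-likelihood) and, as an alternative, DESeq2 1.42.0. The fits were tested on simulated data. Groups came from the labels. Same-numbered brain and liver libraries did not deviate together (correlations of -0.04 to 0.08) and were not treated as pairs. That check could not exclude pairing, since libraries of a group often differed by no more than counting noise. The interval's peaks carry no error, since the lists hold group means, and counting error limits the liver loci, with 7 to 57 reads at tRNA-Phe-3-1.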

Additional observations from a re-analysis of the deposited data

How the results depend on the processing

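Of 309 alternative values for 47 results, 287 kept their direction and their side of the threshold or stayed within 1.5 times. Part of this was fixed in advance. The exact permutation test of 3 against 3 libraries could not go below 0.1, and the calls could count at most 2 genes. With a log2 group difference of at least 1, the lists kept 19 peaks of the interval in Phe11 brain (8 higher, 11 lower), 5 in the liver of Phe11 (4 and 1), 5 in that of Phe21 (2 and 3) and 3 in labelled Phe31 liver (1 and 2), and 77 regions were open in brain alone when a region had to be in at least 2 lists of a tissue, an alternative chosen after seeing the data. Of the 2 tRNA-Phe genes, 1 was called in Phe11 brain in batch 2 alone. With a mean of at least 30, the filter left tRNA-Phe-3-1 untested in Phe31 brain, where its loss is a description, and in Phe21 liver, where 0 were called. In Phe21 liver 0 were called with TMM factors over all loci or over the other loci, with limma without trend, with DESeq2 and with close wild-type libraries averaged (chosen after seeing the data), where the cause was not tested, and 0 to 1 with a library left out. Leaving out a library turned the sign of differences close to 0. At tRNA-Phe-3-1 the range was -0.01 to 0.13 in Phe11 brain, negative without wild-type 18, and -0.23 to 0.18 in Phe11 liver, positive without wild-type 1 (0.03) or Phe11 4 (0.18). At tRNA-Phe-1-3 it was -0.49 to 0.03 in labelled Phe31 liver, positive without labelled Phe31 b, and -0.34 to -0.13 in Phe11 brain, where the exact permutation p was 0.0286 without Phe11 6.

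With the replicate block, which pairs brain and liver libraries by number, 0 of the 2 genes in Phe11 and 0 of the 2 in Phe21 had a change that differed between tissues, as without it, while the loci called went from 25 to 3 in Phe11 and from 17 to 18 in Phe21. The correlation of their deviations showed no pairing by number, but it could not exclude pairing. Depth limits the liver loci, where 4719 to 23754 reads over all loci left few at each gene.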
